A study of Mus musculus with 13 samples.

Results

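Myc and 9 genes that control the G1 phase of the cell cycle were followed in mouse femoral bone marrow after a single phlebotomy. The members were Myc, the D-type cyclins Ccnd1, Ccnd2 and Ccnd3, the E-type cyclin Ccne1, the kinases Cdk4 and Cdk6, the kinase inhibitor Cdkn1b, and the transcription factors E2f1 and E2f2. They were chosen by name, and each was read from a probe set annotated to that gene alone. All 10 were measured, out of 19938 genes on the array. Cdkn1b was the member with more than 1 such probe set, and the one with the higher mean level stood for it.

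Male C57BL/6 mice of 6 weeks either were bled of 500 µL by retro-orbital puncture or served as baseline controls without that bleed, and RNA from the femoral marrow was hybridised to Affymetrix Mouse Gene 1.0 ST arrays, a 1-colour platform with probes along the whole transcript. The 13 arrays comprise 3 controls, 1 array at 4 h, 3 at 9 h, 2 at 12 h, 2 at 15 h and 2 at 48 h after phlebotomy. No genotype other than C57BL/6 and no agent is named for any group, and whether arrays with the same time label come from different mice is not stated; p-values therefore speak of the variation among arrays, part or all of which may be technical. The labels name no sham puncture and no hour of collection.

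The titles carry numbers in 2 runs. The larger run holds 10 arrays (controls 1 and 2, the 4 h array, 9 h array 3, and all 12, 15 and 48 h arrays), with a median log2 level of 7.01 over genes. The smaller run holds control 3 and 9 h arrays 1 and 2, with a median log2 level of 7.80. Levels are therefore compared within a run, and fold changes come from a limma fit with the run as a term. By mean log2 level, neutrophil markers had a median percentile of 99.46 among all genes, erythroid markers 98.52, B-lineage markers 87.33, stromal, bone and endothelial markers 78.45, and T and NK cell markers 57.88. Skeletal muscle markers stood at 66.36, small intestine markers at 30.78 and liver markers at 29.49. Markers of other organs differed on some arrays. Of 18 small intestine markers, 14 rose at 4 h, with a median log2 fold change of 3.53; the log2 of their summed level was 14.62 on the 4 h array, against 10.82 and 10.96 on the controls of that run. Of the same 18, 8 fell over the mean of 9, 12 and 15 h against control (0.787% of all genes passed there), with a median of -0.34. None of 14 skeletal muscle markers passed the threshold, but their median log2 fold change at 4 h was 1.61; the log2 of their summed level was 14.07 at 4 h, and 13.23 and 11.13 at 48 h, against 12.11 and 12.23 on the controls of that run. Of 13 measured liver markers, 8 rose at 48 h (0.376% of all genes passed there), with a median log2 fold change of 1.27. The part of this signal in the results below was not tested.

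MYC is a transcription factor that, with its partner MAX, binds E-box sequences and drives genes of ribosome production, metabolism and growth. D-type cyclins pair with CDK4 and CDK6, and cyclin E with CDK2, to inactivate the RB protein and so release E2F factors, which switch on genes of DNA replication. The inhibitor p27, product of Cdkn1b, holds cyclin E and CDK2 in check. In marrow this circuit governs the expansion of progenitors, and after blood loss erythroid progenitors are the cells known to expand.

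Promoter windows of RefSeq (GRCm38.p6, 250 bases before to 50 after a transcript's start) were held for 7 members. Myc, Ccnd1 and Ccnd2 were the others. The canonical MYC E-box CACGTG, which reads the same on both strands, occurred in the windows of Cdk4 and Cdk6. For E2F, 1 of 2 core sequences, TTTGGCG or TTTCGCG on either strand, occurred in the E2f2 window at chr4:136172024-136172323. The other E2f2 window, at chr4:136180532-136180831, held none. The stretches that hold these matches are printed, with the motif in capitals, to show where the letters that MYC and E2F are known to bind occur near the start of the circuit's own genes.
Cdk4, chr10:127063355-127063534, plus strand: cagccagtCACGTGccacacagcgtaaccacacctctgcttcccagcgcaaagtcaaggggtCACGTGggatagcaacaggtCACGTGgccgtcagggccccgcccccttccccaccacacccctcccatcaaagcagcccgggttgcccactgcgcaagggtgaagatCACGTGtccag
Cdk6, chr5:3343661-3343690, plus strand: gttctgcggcccCACGTGggtgaacccccg
E2f2, chr4:136172295-136172322, plus strand: gaaTTTGGCGgcatatagTTTGGCGcta

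The Cdk4 window held 4 E-boxes, all in the 180 bases before the start. Of 32851 windows of this length, 7.15% held at least 1 E-box, 0.594% at least 2 and 0.0244%, or 8 windows, at least 4. The E2f2 stretch lies within the first 50 transcribed bases and holds 2 E2F cores; at least 1 core was held by 2.37% of windows and at least 2 by 0.067%, or 22 windows. These are matches of letters, and no binding was measured in these samples.

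All but 2 members were among the more abundant transcripts of the marrow by mean log2 level over the 13 arrays. Cdk4 stood at the 99.2 percentile of genes, Ccnd3 at 96.5, Cdkn1b at 95.4, Cdk6 at 94.8, Ccnd2 at 93.5, E2f2 at 93.3, Ccne1 at 93.2 and Myc at 91.3. E2f1 stood lower, at 83.2, and Ccnd1, the D-type cyclin of many non-blood cells, lowest at 71.0. Probe sets differ in brightness for the same amount of RNA, so this places each probe set among all others and sets no gene's level against another's.

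No member passed the threshold, an adjusted p under 0.05 by limma with Benjamini-Hochberg adjustment over all 19938 genes, in any comparison. The background of genes that did was 1.99% at 4 h, 0.0953% at 9 h, 0.105% at 12 h, 0.256% at 15 h and 0.376% at 48 h against control, 0.787% for the 9, 12 and 15 h mean, taken against control, 0.978% for 48 h against that mean, and 2.24% for the F test over the 5 times. At an unadjusted p under 0.05 the members counted were 4 of 10 at 4 h (all lower; 15.2% of all genes), 2 at 9 h (6.12%), 2 at 12 h (13.7%), 3 at 15 h (12.5%), 3 at 48 h (14%), 5 for the mean of 9, 12 and 15 h (12%), 4 for 48 h against that mean (all higher; 15.8%) and 3 by the F test (19.4%). Over the 70 pairs of member and comparison no 95% interval of the limma fit reached a doubling or a halving, the bounds running from -0.71 to 0.80 on the log2 scale, and 64 intervals lay wholly within a 1.5-fold change either way.

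**Figure D1:**
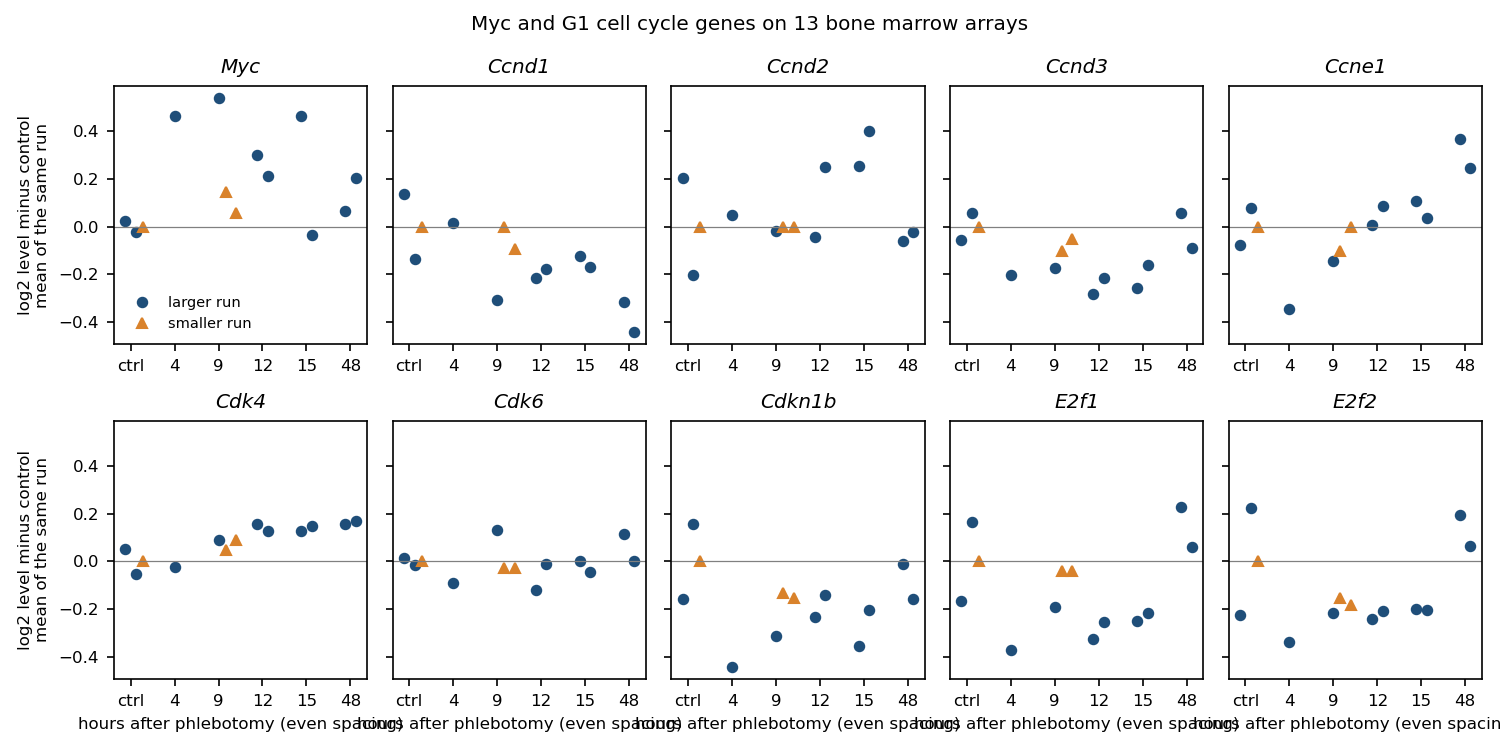
Log2 level of each of the 10 members on every array, minus the control mean of the same run, by hours after phlebotomy (time labels evenly spaced, controls at the left; circles, larger run; triangles, smaller run, whose single control is 0 by construction). The values of E2f1 and E2f2 at 48 h lie above those at 4, 9, 12 and 15 h of the larger run, while their 2 controls lie far apart.

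Myc, the growth factor-responsive regulator at the head of the circuit, had log2 levels in the larger run of 10.07 and 10.02 in controls, 10.51 at 4 h, 10.59 at 9 h, 10.35 and 10.26 at 12 h, 10.51 and 10.01 at 15 h, and 10.11 and 10.25 at 48 h. In the smaller run it had 11.04 and 10.95 at 9 h, against 10.89 in the control. The 4, 9, 12 and 48 h arrays all lay above the controls of their run, and the 15 h arrays overlapped them, 1 being among the highest and the other the lowest of the run. The fitted log2 fold changes against control were 0.39 at 4 h (95% interval -0.02 to 0.80), 0.32 at 9 h (0.02 to 0.62), 0.18 at 12 h, 0.14 at 15 h and 0.06 at 48 h, with adjusted p from 0.352 to 0.891. Within runs the 9 h difference was 0.54 in the larger run, from 1 array against 2 controls, and 0.10 in the smaller, from 2 arrays against 1 control. The 4 h value comes from the 1 array on which 14 of 18 small intestine markers rose. The median of T and NK cell markers, minus the control mean of the run, was 0.16 at 4 h and 0.33 on 9 h array 3. On 15 h array 1 it was -0.04. The part of these cells in the Myc values was not tested.

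The 15 h value rests on 1 array: without 15 h array 1 the Myc log2 fold change was -0.11, and without 15 h array 2 it was 0.39. None of the 14 other genes of the MYC network (partners and antagonists of MYC such as MAX, MXD1 and MNT) passed the threshold in any of the 7 contrasts.

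**Figure D2:**
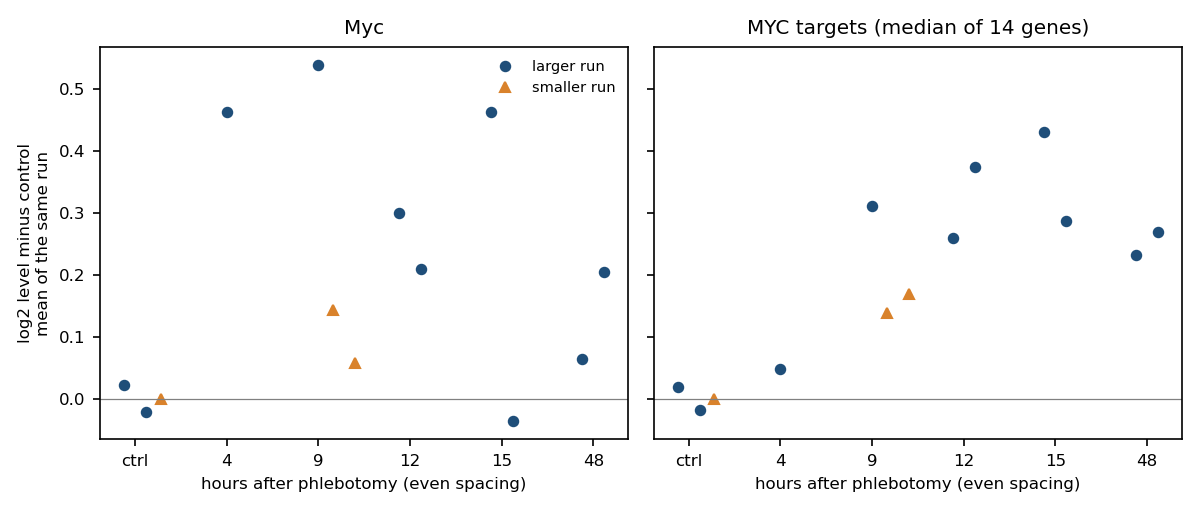
Myc (left) and the median of 14 MYC target genes (right) on every array, each as the log2 level minus the control mean of its run (hours evenly spaced; circles, larger run; triangles, smaller run). The target median lies between 0.14 and 0.43 on all 9, 12 and 15 h arrays, while Myc itself ranges from -0.04 to 0.54 on them.

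The MYC target list held 14 genes, all measured, of ribosome assembly, translation, nucleotide and polyamine synthesis and protein folding that MYC is known to activate. The list was chosen with earlier results of these data known, so its counts describe it and are no independent test. Against control, 5 of 14 rose over the mean of 9, 12 and 15 h (Hspd1, Ncl, Nop58, Npm1 and Srm) and none fell. Of all genes 0.787% passed there in either direction. The list median log2 fold change was 0.29, beside -0.0022 over all genes. At 15 h 3 rose (Hspd1, Nop58 and Npm1, beside 0.256% of all genes), with a list median of 0.35. At 12 h 2 rose (Hspd1 and Nop58, beside 0.105% of all genes), with a list median of 0.30. None passed at 4, 9 or 48 h, where the list medians were 0.02, 0.26 and 0.21. At an unadjusted p under 0.05, 12 of the 14 were higher over the mean of 9, 12 and 15 h and none was lower. Of all genes 12% passed that cut in either direction. The 8 small intestine markers that fell did so in the same comparison, and their part in these counts was not tested.

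Nop58, a core protein of box C/D small nucleolar ribonucleoproteins, had log2 levels in the larger run of 9.20 and 9.16 in controls, 9.36 at 4 h, 9.57 at 9 h, 9.74 and 9.79 at 12 h, 9.73 and 9.77 at 15 h, and 9.47 and 9.66 at 48 h. Every array after phlebotomy in that run lay above both controls. In the smaller run it had 10.15 and 10.08 at 9 h, against 9.81 in the control. Its fitted log2 fold change over the mean of 9, 12 and 15 h was 0.49 (SE 0.06; limma adjusted p = 0.00386).

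Hspd1, the mitochondrial chaperonin, had log2 levels in the larger run of 10.43 and 10.41 in controls, 10.26 at 4 h, 10.95 at 9 h, 11.04 and 11.07 at 12 h, 11.04 and 10.99 at 15 h, and 10.78 and 10.91 at 48 h. The 4 h array was the lowest of that run and all later arrays lay above both controls. Its log2 fold change over the mean of 9, 12 and 15 h was 0.50 (SE 0.06; limma adjusted p = 0.00683). Npm1, a nucleolar protein of ribosome assembly, had 0.42 (SE 0.06; adjusted p = 0.00801), and Srm, the spermidine synthase, 0.49 (SE 0.08; adjusted p = 0.0175).

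These counts depend on single controls and on the run term. Over the mean of 9, 12 and 15 h, 1 target passed without control 2, 3 without 15 h array 1, 2 in the larger run alone, and none without the run term or with array weights; the highest count was 7. At 12 h and at 15 h the counts ranged from 0 to 4 over the alternatives, and both were 0 without control 2. Over all genes the counts ranged from 8 to 340 for the mean of 9, 12 and 15 h, 2 to 414 at 12 h and 5 to 505 at 15 h. The list median over the mean of 9, 12 and 15 h stayed between 0.20 and 0.35 in the alternatives run for the lists, which leave out the test of every probe set.

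The D-type cyclins are the growth-signal sensors of the circuit, and each of the 3 pairs with CDK4 or CDK6. Ccnd1 had log2 levels in the larger run of 8.97 and 8.70 in controls, 8.85 at 4 h, 8.52 at 9 h, 8.62 and 8.66 at 12 h, 8.71 and 8.66 at 15 h, and 8.52 and 8.39 at 48 h. The 9, 12 and 48 h arrays lay below both controls of that run, and the 4 h and 15 h arrays overlapped them. Its log2 fold change at 48 h was -0.34 (95% interval -0.56 to -0.11; limma adjusted p = 0.189). Of 15 measured stromal, bone and endothelial markers none passed the threshold. At an unadjusted p under 0.05, 7 were lower at 9 h (6.12% of all genes) and 1 at 48 h (14%) against control. Their median log2 fold changes were -0.38 and -0.29. The log2 of their summed level in the larger run was 15.69 and 15.15 in controls, 15.50 at 4 h, 14.32 at 9 h, 15.25 and 15.47 at 12 h, 15.56 and 15.55 at 15 h, and 14.62 and 15.01 at 48 h, so that, as for Ccnd1, the 9 and 48 h arrays were below both controls. At 12 h they differed, as the Ccnd1 arrays lay below both controls and the marker sums between them. In the smaller run the 9 h marker sums were 15.79 and 15.92, against 15.92 in the control. Ccnd1 had 9.44 and 9.35 at 9 h there, against 9.44 in the control. The part of these cells in the Ccnd1 values was not tested.

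Ccnd2, the D-type cyclin of many lymphoid and progenitor cells, had log2 levels in the larger run of 10.65 and 10.24 in controls, 10.49 at 4 h, 10.42 at 9 h, 10.40 and 10.69 at 12 h, 10.70 and 10.84 at 15 h, and 10.38 and 10.42 at 48 h. The 15 h arrays were above both controls and the arrays of the other times fell among them, except 12 h array 2, which was slightly above. Its log2 fold change at 15 h was 0.33 (95% interval 0.05 to 0.61; limma adjusted p = 0.327), which is less than the 0.41 between the 2 controls of that run.

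Ccnd3, the D-type cyclin most tied to erythroid and lymphoid cells, had log2 levels in the larger run of 11.10 and 11.21 in controls, 10.95 at 4 h, 10.98 at 9 h, 10.87 and 10.94 at 12 h, 10.90 and 11.00 at 15 h, and 11.21 and 11.06 at 48 h. Every array from 4 to 15 h lay below both controls, and the 48 h arrays overlapped the controls. The log2 fold change over the mean of 9, 12 and 15 h was -0.18 (95% interval -0.31 to -0.05; limma adjusted p = 0.234). In the smaller run Ccnd3 had 12.16 and 12.21 at 9 h, against 12.26 in the control.

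Cdk4, the main kinase partner of the D-type cyclins, had log2 levels in the larger run of 12.27 and 12.16 in controls, 12.19 at 4 h, 12.31 at 9 h, 12.37 and 12.35 at 12 h, 12.35 and 12.37 at 15 h, and 12.37 and 12.39 at 48 h. In the smaller run it had 12.99 and 13.03 at 9 h, against 12.94 in the control. It was the one member above the controls of its run on every array from 9 to 48 h, by small amounts: 0.12 on the log2 scale over the mean of 9, 12 and 15 h (95% interval 0.01 to 0.23; limma adjusted p = 0.381) and 0.16 at 48 h (adjusted p = 0.328). Cdk6, the other partner, ranged from 10.64 to 10.89 over the 10 arrays of the larger run, a span of 0.25, and reached an unadjusted p under 0.05 in none of the 7 contrasts.

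Cdkn1b, which encodes the inhibitor p27, had log2 levels in the larger run of 10.93 and 11.24 in controls, 10.64 at 4 h, 10.77 at 9 h, 10.85 and 10.94 at 12 h, 10.73 and 10.88 at 15 h, and 11.07 and 10.92 at 48 h. In the smaller run it had 11.52 and 11.50 at 9 h, against 11.65 in the control. The 4, 9 and 15 h arrays lay below the controls of their run, and the 12 and 48 h arrays overlapped them. Its log2 fold change was -0.42 at 4 h (95% interval -0.71 to -0.12; limma adjusted p = 0.170) and -0.21 over the mean of 9, 12 and 15 h (adjusted p = 0.310). Controls 1 and 2 differed from each other by 0.31. The 4 h value comes from the 1 array on which 14 of 18 small intestine markers rose.

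Cyclin E, with CDK2, carries cells past the G1 checkpoint. Ccne1 had log2 levels in the larger run of 10.40 and 10.55 in controls, 10.13 at 4 h, 10.33 at 9 h, 10.48 and 10.56 at 12 h, 10.58 and 10.51 at 15 h, and 10.84 and 10.72 at 48 h. The 4 h array was the lowest of that run and the 48 h arrays the 2 highest, with no overlap with controls. Its log2 fold change was -0.33 at 4 h (limma adjusted p = 0.163), 0.32 at 48 h against control (adjusted p = 0.144) and 0.30 at 48 h against the mean of 9, 12 and 15 h (95% interval 0.15 to 0.46; adjusted p = 0.0811). The F test over the 5 times gave it the smallest adjusted p of the members, 0.0629. Both that test and the 4 h fold change draw on the 1 array on which 14 of 18 small intestine markers rose.

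E2f1, an activator of replication genes and itself an E2F target, had log2 levels in the larger run of 9.37 and 9.70 in controls, 9.16 at 4 h, 9.34 at 9 h, 9.21 and 9.28 at 12 h, 9.29 and 9.32 at 15 h, and 9.77 and 9.60 at 48 h. E2f2, the activator E2F with a known part in the last divisions of erythroid cells, had 10.37 and 10.82 in controls, 10.26 at 4 h, 10.38 at 9 h, 10.35 and 10.39 at 12 h, 10.40 and 10.39 at 15 h, and 10.79 and 10.66 at 48 h. In that run both genes were lowest at 4 h and had both 48 h arrays above every array from 4 to 15 h. From 9 to 15 h E2f1 lay below both controls, while E2f2 lay close to control 1 and below control 2, so it overlapped the controls. In the smaller run E2f1 had 10.49 on both 9 h arrays, against 10.53 in the control. E2f2 had 11.39 and 11.36 at 9 h there, against 11.54 in the control. Exact ties occurred in that run. E2f1 and Cdk6 (11.53, control 11.55) were each tied on both 9 h arrays, and Ccnd2 (11.45) on all arrays. Ccnd1 had 9.44 on the control and 9 h array 1, and 9.35 on array 2. Ccne1 had 11.31 on the control and 9 h array 2, and 11.20 on array 1. Values equal to the control were not confined to members. On both 9 h arrays of that run the list median minus the control was 0 for the MYC network and for T and NK cell markers. It was -0.07 and -0.06 for erythroid markers, and 0.14 and 0.17 for MYC targets. Without 9 h array 3 the median 9 h log2 fold change over all genes was -1.8e-15. The tied values enter the fit and the 9 h counts, and the origin and effect of the ties were not tested.

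The log2 fold change at 48 h against the mean of 9, 12 and 15 h was 0.37 for E2f1 (95% interval 0.17 to 0.57; limma adjusted p = 0.0886) and 0.34 for E2f2 (0.12 to 0.56; adjusted p = 0.146). Against control at 4 h, E2f1 was -0.35 (adjusted p = 0.240) and E2f2 -0.33 (adjusted p = 0.314), both from the 1 array on which 14 of 18 small intestine markers rose. At 48 h against control they were 0.17 and 0.14, with intervals that span 0. The larger-run controls differed from each other by 0.33 for E2f1 and by 0.45 for E2f2, which is more than any of its 5 fold changes against control. Without control 2, E2f1, E2f2 and Ccne1 passed the threshold at 48 h against the mean of 9, 12 and 15 h (limma adjusted p 0.0206, 0.0262 and 0.0414). In that setting 502 of 19938 genes passed there, against 195 in the main fit. Without control 1, the E2f2 log2 fold change at 4 h was -0.48.

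**Figure D3:**
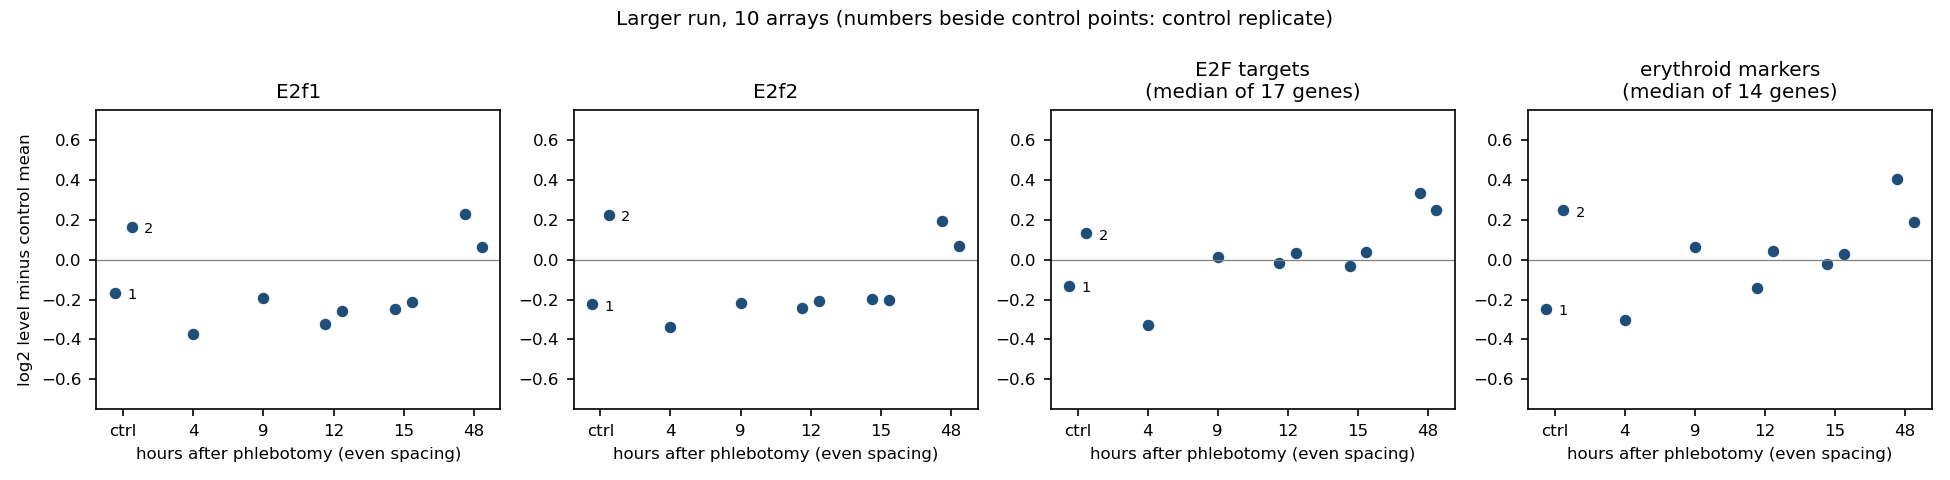
E2f1, E2f2 and the medians of the E2F target and erythroid marker lists on the 10 arrays of the larger run, as log2 level minus the mean of its 2 controls (hours evenly spaced; controls numbered 1 and 2). In all 4 panels control 2 lies above control 1, the 4 h array is the lowest, and both 48 h arrays lie above the 9, 12 and 15 h arrays.

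The E2F target list held 18 genes of DNA replication and its licensing, 17 of them measured, and none passed the threshold in the main comparisons. At 48 h against the mean of 9, 12 and 15 h, all but 1 were higher at an unadjusted p under 0.05 (16 of 17; 15.8% of all genes in either direction), with a median log2 fold change of 0.29, beside 0.01 over all genes. At 48 h against control, 12 of 17 were higher and none lower at an unadjusted p under 0.05 (14% of all genes in either direction), with a median of 0.28. At 4 h against control, 10 of 17 were lower at that cut (15.2% of all genes in either direction), with a median of -0.33. The 4 h values come from the 1 array on which 14 of 18 small intestine markers rose. This list, too, was chosen with earlier results of these data known. Mcm7, a subunit of the replicative helicase, had the smallest p of the list at 48 h against that mean (log2 fold change 0.44, limma adjusted p = 0.0526) and was named after its values were seen. Without control 2, 7 of the 17 passed there, beside 502 of all 19938 genes. Without control 1, 6 did, beside 446 of all genes. In the main fit 195 of all genes passed there. Of 23 measured other G1/S regulators, such as the remaining CDK inhibitors and RB family genes, none passed, and 9 were lower at 4 h and 7 higher at 48 h against the mean at an unadjusted p under 0.05.

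Of 14 measured erythroid markers, none passed the threshold at 4 h or at 48 h against control. The median log2 fold change was -0.34 at 4 h. At 48 h against control it was 0.26, with 5 higher and none lower at an unadjusted p under 0.05 (14% of all genes). Over the mean of 9, 12 and 15 h, 1 rose past the threshold against control (0.787% of all genes), with a list median of -0.01. At 48 h against that mean 1 rose (Aqp1, a water channel of red cells, beside 0.978% of all genes). There 7 were higher and none lower at an unadjusted p under 0.05 (15.8% of all genes), with a median log2 fold change of 0.29. The log2 of their summed level in the larger run was 15.86 and 16.21 in controls, 15.78 at 4 h, 16.06 at 9 h, 15.96 to 16.10 at 12 h, 16.03 at 15 h in both arrays, and 16.21 to 16.30 at 48 h. As with E2f1 and E2f2, control 2 lay above control 1 and the 4 h array was lowest. In bulk marrow, fewer cells of a type and less RNA per cell cannot be told apart, and the part of erythroid content in the E2f1, E2f2 and Ccne1 values was not tested. Of 13 measured liver markers, 10 rose at 48 h against the mean of 9, 12 and 15 h, where 0.978% of all genes passed. The log2 of their summed level was 12.93 and 13.05 at 48 h, against 12.29 to 12.37 on the 9, 12 and 15 h arrays of the larger run. Markers of other marrow lineages had negative medians at 48 h, with none past the threshold. Against control, 14% of all genes had an unadjusted p under 0.05 in either direction. The median log2 fold change there was -0.27 for B-lineage markers (6 of 13 lower at that cut), -0.27 for T and NK cell markers (4 of 12) and -0.16 for neutrophil markers (6 of 14). Against the 9, 12 and 15 h mean it was -0.16 for B-lineage markers, -0.24 for T and NK cell markers (4 of 12 lower, beside 15.8% of all genes in either direction), -0.11 for neutrophil markers and -0.26 for stromal, bone and endothelial markers. The part of these shifts in the members' values was not tested. Across the 13 arrays, each centred on its run, E2f1 and E2f2 had a Pearson r of 0.96, Ccnd3 and E2f1 0.89, and Cdkn1b and E2f2 0.85. Other pairs of members ran opposite. The most negative were Myc and Cdkn1b (-0.78), Myc and Ccnd3 (-0.68), and Ccnd1 and Ccne1 (-0.61). These values describe arrays that share groups, runs and cell makeup.

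**Figure D4:**
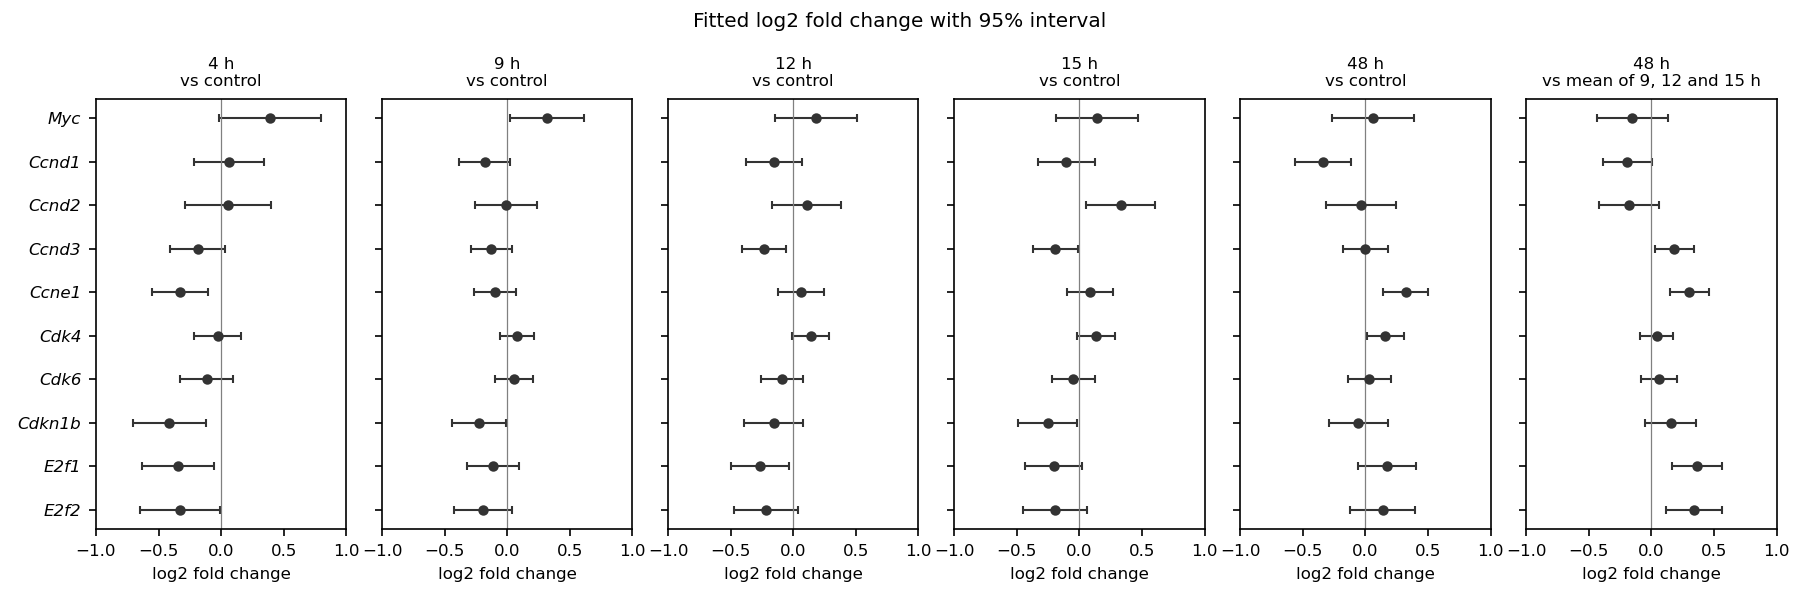
Fitted log2 fold change of each member with its 95% interval (limma, all 13 arrays, run as a term), for each time against control and for 48 h against the mean of 9, 12 and 15 h. No interval reaches -1 or 1, and those of Ccne1, E2f1, E2f2 and Ccnd3 lie above 0 in the last panel.

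Groups that do not overlap within a run were also counted. At 9 h, 5 of the 10 members separated from the controls of each run (Myc and Cdk4 higher; Ccnd3, Cdkn1b and E2f1 lower), where 11.5% of all genes did. With 2 arrays against 2 in the larger run, the background was 40.1% at 12 h, 39.5% at 15 h and 40.2% at 48 h, and the members that separated were 5, 5 and 4 of 10. For the mean of 9, 12 and 15 h, 3 separated (Cdk4 higher; Ccnd3 and E2f1 lower) beside 4.86% of all genes. The 48 h arrays, all of the larger run, were set against the 9, 12 and 15 h arrays of that run only. There 6 separated (Ccnd3, Ccne1, Cdk4, E2f1 and E2f2 higher, Ccnd1 lower) beside 17.1% of all genes. Cdk4 and Ccnd1 separated narrowly. The nearest Cdk4 arrays had log2 levels of 12.3729 at 48 h and 12.3725 at 12 h. Its fitted log2 fold change against the 9, 12 and 15 h mean was 0.04 (limma adjusted p = 0.772). The nearest Ccnd1 arrays had 8.5166 at 48 h and 8.5250 at 9 h.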

How the data were processed

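The values are log2 levels that the authors made with RMA and deposited, 1 column per array, per the submitters' processing notes; the RMA version, and which arrays were normalized together, are not given in the sources used here. Of 35557 probe sets, 21789 have 1 gene symbol in the platform annotation, 1621 have several and 12147 none listed. Symbols of 21698 were updated through the Entrez identifier, and the probe set of highest mean stood for a gene, giving 19938 genes. From these log2 values limma 3.58.1 in R 4.3.3 fitted 6 groups and a fixed run term to 13 arrays. The fit had 6 residual and 4.62 prior degrees of freedom. Its code was also run afterwards on data simulated from the estimates of that fit. The threshold was a Benjamini-Hochberg adjusted p under 0.05, and 95% intervals are unadjusted. The spread of the lone 4 h array was taken to equal that of the remaining groups. All 10 members were named; of each other list, up to 4 genes past the threshold with the smallest p were to be described; Ncl, the fifth MYC target past it, and Mcm7, not past it, were named after their values were seen. Members and lists were chosen with earlier results of these data known. Figures used matplotlib 3.10.9 in Python 3.11.15. The number of arrays limits the precision. Closing results cover 10 alternatives and leaving out each replicate in turn.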

Additional observations from a re-analysis of the deposited data

How the results depend on the processing

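The alternatives were no run term, the run as a random block, the larger run alone, the groups of the contrast alone, dim genes left out, every probe set tested, quantile normalization again within runs, arrays centred on their median, a trend with robust eBayes, array weights, and leaving out each replicate in turn; without the only 4 h array the 4 h comparison and the F test over 5 times have no value, and no member passed in the other comparisons. Of 831 alternative values followed for 36 member fold changes, 808 kept their sign and side of the threshold, 9 newly passed it and 14 reversed. The 831 values are slightly more than the settings named here yield, and the further values are not itemised. With array weights 3 members passed at 4 h (Cdkn1b, E2f1 and E2f2), and leaving out replicates gave 0 to 1. At 48 h against the mean of 9, 12 and 15 h, 2 passed with the groups of the contrast alone (E2f1 and E2f2, adjusted p 0.0340 and 0.0349), and 0 to 3 when a replicate was left out. By the F test 1 passed with the run as a random block, 1 with trend and robust eBayes (Ccne1 in both) and 2 with array weights (Ccne1 and E2f1), and 0 to 3 when a replicate was left out. Without the run term, log2 fold changes reversed for Myc at 12 h (-0.028), 15 h (-0.069) and 48 h (-0.15), Ccnd2 at 15 h (-0.0084), Ccnd3 at 48 h against the mean of 9, 12 and 15 h (-0.073), Cdk4 at 48 h (-0.079), E2f1 at 9 h (0.24) and 48 h (-0.19), and E2f2 at 9 h (0.13) and 48 h (-0.18); that fit sets levels of both runs side by side. With a replicate left out, the ranges that cross 0 were -0.11 to 0.39 for Myc at 15 h, -0.0099 to 0.13 for Myc at 48 h and -0.017 to 0.30 for E2f2 at 48 h. Over all genes the counts past the threshold moved with the setting, from 78 to 1852 at 4 h (397 as reported), 3 to 75 at 9 h (19), 2 to 414 at 12 h (21), 5 to 505 at 15 h (51), 11 to 143 at 48 h (75), 8 to 340 for the mean of 9, 12 and 15 h (157), 13 to 502 for 48 h against that mean (195) and 98 to 1971 by the F test (447). The cause of these shifts was not tested.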

Other observations

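The second probe set of Cdkn1b, at the 70.8 percentile of mean log2 level against 95.4 for the one used, gave log2 fold changes of -0.34 at 4 h, -0.18 at 9 h, 0.46 at 12 h, -0.41 at 15 h and 0.30 at 48 h against control, none past the threshold (limma adjusted p from 0.461 to 0.918). At 12 and 48 h its sign differed from that of the probe set used.

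The genes whose levels followed Myc most closely over the 13 arrays centred on their run were Flicr (Pearson r 0.94), Stk36 (0.91), Cdx4 (0.90), Tas2r139 (0.87) and Polr2h (0.85). E2f2 was followed by Pcyt1b and Tlcd1 (0.99 each) and Racgap1 (0.98), a cytokinesis gene; the E2f2 likeness was named after its values were seen. The arrays share groups and runs, and genes ranked highest out of 19938 are high by selection.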
